A study of Mus musculus with 28 samples.

Results

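Of the 28 single mouse brain cells in the series, 12 were examined for the transmitter genes that they carried. These 12 are the columns of the count tables whose codes begin with BRP, other than BRP564 and BRP566 to BRP572. A cell was put on the glutamatergic side when the summed level of Slc17a6 and Slc17a7 was at least 20 CPM (counts of a gene per 1000000 exonic counts of the cell) and above the sum of Gad1 and Gad2, and on the GABAergic side in the opposite case. This placed 10 cells on the glutamatergic side and 2 cells, BRP528 and BRP541, on the GABAergic side, and 0 cells met neither condition. The sides were chosen by the levels of these 4 genes, so their own levels are a description only, and with 2 cells on the GABAergic side every comparison is descriptive.

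The study sequenced RNA of single cells beside its map of open chromatin. The sample labels name 12 neurons and 8 astrocytes from primary culture of the C57/BL6 mouse cortex, taken up by pipette, and 8 interneurons drawn into a patch pipette from acute slices of the prefrontal cortex of C57/BL6/N mice. The codes of the columns match none of these labels, so the 12 cells are presumed, and not known, to be the cultured neurons. The labels describe no treatment and give no animal, culture dish or day for a single cell, and all 28 columns count as 1 pooled sample of cells. The growth text of the labels speaks of a perfused male mouse of 3 months, whereas the methods describe embryonic brain cells kept in culture. The age of the animals behind the 12 cells is therefore left unstated here.

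Neurons that release glutamate load it into vesicles with the transporters encoded by Slc17a6 (VGLUT2) and Slc17a7 (VGLUT1). Neurons that release GABA make it from glutamate with the decarboxylases encoded by Gad1 (GAD67) and Gad2 (GAD65) and load it with the transporter encoded by Slc32a1. In the cortex the excitatory cells are born locally and pass through a series of factors such as the NEUROD proteins and TBR1, whereas most inhibitory cells migrate in from the ganglionic eminences, where the DLX proteins and LHX6 act.

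On the glutamatergic side, the Slc17a6 and Slc17a7 sum was 73.1 CPM in BRP529, 106 in BRP540, 119 in BRP538, 199.97 in BRP534, 208 in BRP536, 331 in BRP539, 364 in BRP537, 705 in BRP543, 803 in BRP535 and 1021 in BRP542. The lowest of these lay well above the minimum of 20 CPM, and every one of the 10 cells had more Slc17a6 than Slc17a7 counts. Slc17a7 alone reached 20 CPM in 7 of the 10. BRP528 had 0 counts of both transporters, with 1136 CPM of Gad1 (22808 counts, 95% Poisson interval 22513 to 23106) and 780 CPM of Gad2 (15670 counts). BRP541 was the cell nearest to the limit between the sides. It had 340 CPM of Gad2 (5980 counts, interval 5829 to 6134) and 0 counts of Gad1, beside 213 CPM of Slc17a6 (3739 counts, interval 3620 to 3861) and 19.6 CPM of Slc17a7. The intervals are for counting error only. BRP541 is GABAergic by the rule through 1 gene, and its Slc17a6 level lay inside the range of the glutamatergic cells.

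**Figure D1:**
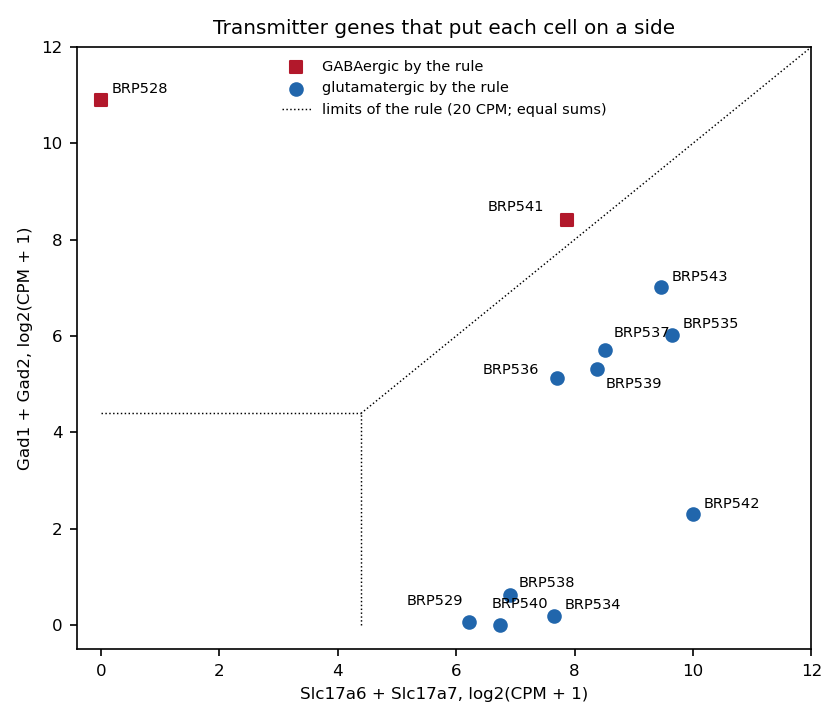
Summed level of Gad1 and Gad2 against that of Slc17a6 and Slc17a7, both as log2(CPM + 1), with 1 point for each of the 12 cells. Dotted lines mark the minimum of 20 CPM and equal sums. BRP528 sits alone at the upper left, BRP541 just above the line of equal sums, and the 10 glutamatergic cells below it.

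Gad2 was not restricted to the GABAergic side. It reached 20 CPM in 5 of the 10 glutamatergic cells, at 33.9 CPM in BRP536, 38.6 in BRP539, 51.6 in BRP537, 64.3 in BRP535 and 128 in BRP543, and was between 0 and 3.94 CPM in the other 5. Gad1 was at most 0.204 CPM on that side, 9 counts in all 10 cells together. In every cell but BRP528, therefore, Gad2 counts came with 0 to 4 Gad1 counts. In BRP543, the glutamatergic cell with the largest Gad share, the decarboxylases made up 15.4% of the summed level of the 4 genes, compared with 59.4% in BRP541 and 100% in BRP528. Intronic Gad2 counts did not separate the cells, with 5 to 25 in each of the 12. Intronic Gad1 counts were 0 in all 28 columns, including F6 with 104941 exonic Gad1 counts, so they could not separate any cells. Intronic Slc17a6 counts were 211 in BRP528, which had 0 exonic counts of the gene, 8 in BRP541 and 0 to 1072 in the glutamatergic cells, with 0 to 59 in BRP529, BRP537, BRP539, BRP540 and BRP543. Counts named without a qualifier are exonic throughout.

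The 4 genes lie on 2 chromosomes, given here by the GENCODE M21 annotation of GRCm38. Gad1 (ENSMUSG00000070880) spans chr2:70553072-70602014, Gad2 (ENSMUSG00000026787) chr2:22622205-22693874, Slc17a6 (ENSMUSG00000030500) chr7:51622006-51671119 and Slc17a7 (ENSMUSG00000070570) chr7:45163949-45176142, each on the plus strand. The 250 bases before each RefSeq start of these genes (GRCm38.p6) were searched on both strands for CAGATG, a form of the E-box that neurogenic basic helix-loop-helix factors can bind, whose other strand reads CATCTG, and for the homeodomain motif TAATTA, which reads alike on both strands. The 3 matches are shown with 10 bases on each side and the motif in capitals.
Slc17a6, 205 bases before its second RefSeq start: ctgagtggtaCAGATGgccctgtggg
Slc17a6, 81 bases before the same start: tgtgaatgatTAATTAttcatgttgt
Gad2, 76 bases before its RefSeq start: ccctcccccgCATCTGactcgcacct
The excerpts are chr7:51624422-51624447, chr7:51624546-51624571 and chr2:22622241-22622266, all on the plus strand. Both Slc17a6 matches fall in an intron of the GENCODE gene, and the Gad2 match falls in its first GENCODE exon. The windows of Gad1, of Slc17a7 and of the first Slc17a6 start held 0 matches. Of 32851 windows of the same length, 14.4% held the E-box and 4.84% the homeodomain motif, and a match describes these letters only.

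Exonic totals of the 12 cells ranged from 17483754 to 26770944 counts (median 2.12e+07), and 9869 to 12564 genes had an exonic count. The intronic share of counts was 14.5% in BRP528 and 9.81% in BRP541, inside the 8.91% to 38.8% of the glutamatergic cells. In each of the 66 pairs the difference was far beyond counting error (chi-square over degrees of freedom of at least 460), so no library appears to be present more than once. All 12 carried pan-neuronal genes at a similar summed level: 12239 CPM in BRP528, 12799 in BRP541, and a lowest, median and highest of 8291, 12771 and 15052 in the glutamatergic cells. The same sum was at most 1719 CPM in the 8 other BRP columns. Across 9579 genes, the median Spearman correlation with the glutamatergic cells was 0.541 for BRP528, 0.635 for BRP541, 0.553 for BRP529 and 0.643 to 0.710 for the other 9, a description over genes that share a library and its depth.

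BRP528 and BRP529 carry the lowest codes and stand next to each other, and what the codes record is not known. Of the 9579 genes, BRP528 and BRP529 were both above the 10 cells BRP534 to BRP543 in 370 (3.86%) and both below them in 346 (3.61%). Among the 1444 genes in which BRP528 exceeded every glutamatergic cell, BRP529 also exceeded the other 9 in 255 (17.7%), and BRP528 was at least 4-fold above BRP529 in 811 (56.2%). The part of a shared preparation in these values was not tested.

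Levels of the other genes were compared as the mean CPM of each side, with 1 CPM added to both, over the 9543 genes whose 2 side means averaged at least 5 CPM. On the GABAergic side, 715 genes (7.49%) were 4-fold or more higher and 994 (10.4%) 4-fold or more lower. Both GABAergic cells exceeded every glutamatergic cell in 184 genes (1.93%) and lay below every one in 168 (1.76%). Without BRP529, the first of these 2 counts was 319. Taken alone, BRP528 was above all 10 glutamatergic cells in 1444 of 9319 genes (15.5%) and below them in 1002 (10.8%), and BRP541 was above in 1120 of 9112 (12.3%) and below in 793 (8.7%). The cells shared 169 genes of the upper lists, which is 11.7% of those of BRP528 and 15.1% of those of BRP541, and 168 of the lower lists (16.8% and 21.2%). The 2 GABAergic cells are described singly hereafter. Each list of genes below is read against these shares, and a gene can enter a list's count through its level in 1 cell alone.

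The genes for handling GABA separated BRP528 and not BRP541. Slc32a1, the vesicular GABA transporter, had 798 CPM in BRP528 (16013 counts), 0 counts in BRP541 and 2 counts in all 10 glutamatergic cells. The enzymes that break GABA down were also highest in BRP528. Abat was at 217 CPM in BRP528 and 33.2 in BRP541, compared with a lowest, median and highest of 0.846, 34.2 and 63.4 in the glutamatergic cells. Aldh5a1 was at 478 CPM in BRP528 and 10.6 in BRP541, beside a glutamatergic maximum of 282. Of the 10 genes of this list, 9 passed the minimum in the comparison of BRP528, and 4 were above and 1 below every glutamatergic cell, the 1 being Nlgn2, an adhesion protein of inhibitory synapses (2.74 CPM against at least 8.68). In BRP541, 8 passed and 0 lay outside the glutamatergic range in either direction. The list's median log2 ratio to the glutamatergic mean was 0.49 in BRP528 and -0.05 in BRP541, beside -0.20 and -0.25 over all genes tested.

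Transcription factors of the interneuron lineage were likewise high in BRP528. Lhx6, which marks cells of the medial ganglionic eminence, was at 111 CPM in BRP528, 0 in BRP541 and at most 3.31 elsewhere. In the introns of Lhx6, however, BRP529 had the most counts (456, against 39 in BRP528). Sp9 was at 129 CPM in BRP528 and 0 in BRP541 with a glutamatergic maximum of 13.7.

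Maf was above every glutamatergic cell in both, at 184 CPM in BRP528 and 57.2 in BRP541 against a maximum of 14.7. Dlx1 (5.53 CPM) and Dlx5 (13.4 CPM) had counts in BRP528 alone, while Dlx2 was at 14.5 CPM there, 29.0 in BRP529 and 66.3 in BRP542. Dlx1as, the antisense transcript of Dlx1, was at 114 CPM in BRP528 and at most 0.400 in any other of the 12 cells, and strand use in the counting is not stated, so reads of the pair may have been exchanged. Nkx2-1 and Dlx6 had 0 counts in all 12 cells. Of the 23 lineage factors in the table, 13 passed the minimum in the comparison of BRP528, with 7 above and 2 below every glutamatergic cell. The 2 below were Nr2f1 (88.9 CPM) and Meis2 (59.8 CPM against at least 433). In BRP541, 8 passed, 3 were above (Maf, Zeb2 and Etv1) and 0 below. The median log2 ratios were 1.26 and -0.15.

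The peptides and calcium-binding proteins by which interneurons are commonly classed split the GABAergic cells from each other. Npy, a peptide of several interneuron classes, was at 337 CPM in BRP528 and 0 in BRP541, and 1 of the 10 glutamatergic cells had any count (0.491 CPM). Pvalb, the calcium buffer of fast-spiking cells, was at 279 CPM in BRP528, 0 in BRP541 and at most 5.36 in the glutamatergic cells. Pvalb intronic counts were 503 in BRP528, 100 in BRP539 and 0 in the remaining 10 cells. Reln, a secreted glycoprotein, was at 262 CPM in BRP528 and 0 in BRP541, with 0, 5.94 and 64.5 CPM in the glutamatergic cells. Reln intronic counts did not follow, at 1004 in BRP528 and 273 in BRP541, both inside the glutamatergic range of 28 to 1366.

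BRP541 showed other members of the group. Sst was at 69.3 CPM in BRP541, 0 in BRP528 and at most 9.49 in the glutamatergic cells, and Tac1 was at 27.6 CPM in BRP541 with 0 counts in the other 11. Penk, which encodes an opioid precursor, was at 8073 CPM in BRP541, the highest of the 12 cells, but the glutamatergic cells also held 0.627, 1014 and 6559 CPM, whereas BRP528 had 1 count. Cck, high in pyramidal cells and in 1 class of interneurons, was at 41.6 CPM in BRP528, below all others, and at 1039 in BRP541, inside the glutamatergic range of 700.2 to 5024. Calb1 had 0 counts in both GABAergic cells and in 4 of the 10 glutamatergic cells. Vip and Cort were at 0 or near 0 in all 12. In BRP528, 7 of the 16 genes passed the minimum, 3 above and 3 below every glutamatergic cell (Cck, Penk and Lamp5), with a median log2 ratio of -5.57. In BRP541, 8 passed, 3 were above and 0 below, and the median was 1.41.

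**Figure D2:**
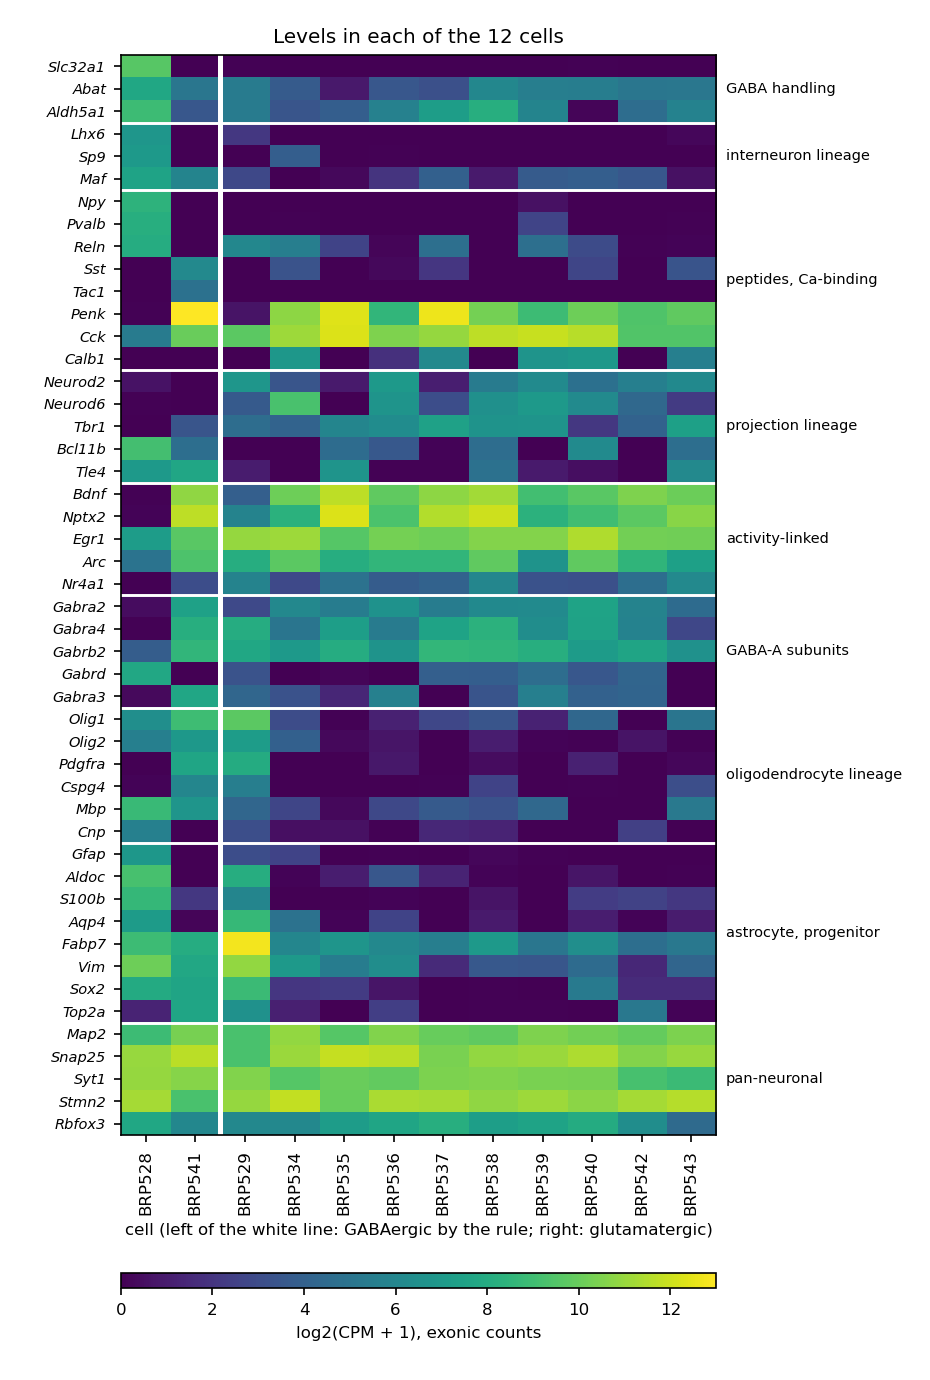
Level of selected list genes in each of the 12 cells as log2(CPM + 1) of exonic counts, with BRP528 and BRP541 to the left of the white line and the 10 glutamatergic cells to the right. Slc32a1, Npy and Pvalb are bright in BRP528 only, Penk is brightest in BRP541 (8073 CPM), and Fabp7 is brightest in BRP529 (7008 CPM).

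Among genes of migration and fast spiking, the potassium channel subunits Kcnc1 and Kcnc2 were at 151 and 77.1 CPM in BRP528, above glutamatergic maxima of 108 and 48.4, and at 13.2 and 0 in BRP541. Their introns did not follow, with 0 Kcnc1 and 86 Kcnc2 intronic counts in BRP528 against up to 409 and 1462 in the glutamatergic cells. Erbb4, the neuregulin receptor of interneurons, had 0.847 CPM in BRP528 and at most 0.146 in the others, which are levels of a few counts. Its intronic counts were 3007 in BRP528, 104 in BRP541 and 59 to 1701 in the glutamatergic cells, so BRP528 was also highest there. The guidance receptors Robo1 and Nrp2 were below every glutamatergic cell in both. Robo1 was at 0.149 CPM in BRP528 and 0.796 in BRP541 against 11.1, 71.2 and 186, and Nrp2 at 0 and 18.6 against 37.9, 98.0 and 528. In introns, Robo1 had 1908 counts in BRP528, inside the glutamatergic range of 218 to 18788, and 40 in BRP541, below it. Nrp2 had 137 intronic counts in BRP528, below the glutamatergic range of 589 to 15766, and 937 in BRP541, inside it. In BRP528, 3 of the 9 genes that passed were above and 2 below every glutamatergic cell, and in BRP541, 1 of 7 was above (Nrp1) and 3 below.

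Several transcription factors of projection neurons were lower in BRP528, and fewer in BRP541. In BRP528, 4 of 17 genes that passed were below every glutamatergic cell and 3 above, and in BRP541, 1 of 16 was below and 1 above. Neurod6 had 1 count in BRP528 and 0 counts in BRP541, compared with 0, 46.8 and 625 CPM in the glutamatergic cells, where BRP535 also had 0. Neurod2 was at 0.548 CPM in BRP528 and 0 in BRP541, below the glutamatergic minimum of 0.893 and median of 44.9. Tbr1, a factor of early-born deep-layer neurons, had 0 counts in BRP528 and 9.67 CPM in BRP541, with 3.37, 68.8 and 173 in the glutamatergic cells. Emx1, a marker of the dorsal lineage, had 0 counts in BRP528 and 22.6 CPM in BRP541, with 2.29, 17.6 and 70.3 in the glutamatergic cells.

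Other members of this list were high on the GABAergic side. Bcl11b, the gene of CTIP2, which is also expressed in interneurons, was at 561 CPM in BRP528, 24.5 in BRP541 and at most 73.6 in the glutamatergic cells. Tle4, a corepressor of deep-layer neurons, was at 128 CPM in BRP528 and 207 in BRP541 against a maximum of 107. Between the sides, 3 of 17 genes that passed were 4-fold or more higher (Bcl11b, Tle4 and Rorb) and 7 were 4-fold or more lower, including Emx2 and Neurog2. Those last 2 were high in few glutamatergic cells, reaching 20 CPM in 2 of 10 each. The list's median log2 ratio was -1.74 in BRP528 and -1.10 in BRP541.

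Genes of glutamate supply and of the excitatory synapse were low in BRP528 and not in BRP541. Dlg4, the gene of the scaffold PSD-95, was at 7.12 CPM in BRP528 and 123 in BRP541, against a lowest, median and highest of 31.0, 93.0 and 140 in the glutamatergic cells. Homer1, a further scaffold, was at 18.2 and 406 CPM against 188, 350 and 445. Nptx2, a secreted pentraxin that gathers AMPA receptors, had 2 counts in BRP528 and 3337 CPM in BRP541 against 54.5, 734 and 5099. In BRP528, 7 of 18 genes that passed were below every glutamatergic cell and 1 above, with a median log2 ratio of -1.59. In BRP541, 0 of 19 were below and 3 above, Nptx1 the farthest (871 CPM against a maximum of 284), with a median of 0.34.

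The receptors for glutamate differed by subunit. Gria2, the AMPA receptor subunit that limits calcium entry, was at 461 CPM in BRP528, below the glutamatergic minimum of 1000, and at 2781 in BRP541. Gria1 was the reverse in BRP528, at 1124 CPM against a glutamatergic maximum of 755, and was inside the range in BRP541 (456 CPM). Among the NMDA receptor subunits, Grin3a was at 127 CPM in BRP528 and 12.9 in BRP541 with a maximum of 76.0, and its intronic counts were also highest in BRP528 (779, against 2 to 712 in the glutamatergic cells). Grin2a had 0 counts in both GABAergic cells, and in 2 of the 10 glutamatergic cells. Its intronic counts were 1355 in BRP528, inside the glutamatergic range of 63 to 53747, and 27 in BRP541, below it. Of 7 AMPA and kainate subunits that passed, 1 was above and 2 below every glutamatergic cell in BRP528 (median log2 ratio -1.25). In BRP541, 0 of 7 were above and 1 below (median -0.09). Of 4 NMDA subunits, 1 was above and 0 below in BRP528 (median -1.40), and 0 lay outside in BRP541 (median -0.03).

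Subunits of the GABA-A receptor differed between the GABAergic cells. BRP528 had little of several subunits that every glutamatergic cell carried. Gabra2 was at 0.349 CPM and Gabra4 at 0.0498 CPM, below glutamatergic minima of 6.27 and 5.72, and Gabrb2 was at 13.2 CPM against at least 94.5. BRP541 held the same 3 at 171, 284 and 370 CPM, each inside the glutamatergic range. The introns of these 3 did not follow in BRP528. Their intronic counts there were 160, 2 and 140, inside glutamatergic ranges of 97 to 8530, 0 to 1057 and 37 to 4888. In BRP541 they were 32, 506 and 60, the first below its range. Gabrd, the subunit of extrasynaptic receptors, was at 222 CPM in BRP528, 0 in BRP541 and at most 23.9 in the glutamatergic cells, whereas Gabra3 was at 0.249 CPM in BRP528, 203 in BRP541 and at most 50.2. The median log2 ratio of the 11 subunits that passed in BRP528 was -2.23, with 1 above and 4 below every glutamatergic cell, and that of 9 in BRP541 was 0.77, with 1 above and 0 below.

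Several genes induced by synaptic activity were low in BRP528. Bdnf, a neurotrophin that excitatory neurons make, had 1 count in BRP528 and 1805 CPM in BRP541, with 14.5, 1106 and 3394 in the glutamatergic cells. Egr1 was at 144 CPM in BRP528 and 815 in BRP541 against 760.0, 1393 and 2794, and Arc at 29.4 and 667 against 99.8, 367 and 912. Nr4a1 had 0 counts in BRP528 and was at 7.45 CPM in BRP541 against at least 6.42. Fos was at 28.6 CPM in BRP528, inside the glutamatergic range of 18.0 to 372. Fosl2, a member of the Fos family, was high in BRP528, at 349 CPM against 0.0475, 114 and 642, and Jun was at 132 CPM against a glutamatergic median of 7.05. In BRP528, 6 of 10 immediate early genes that passed were below every glutamatergic cell and 0 above (median log2 ratio -3.03), and in BRP541 0 of 11 lay outside on either side (median 0.43).

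**Figure D3:**
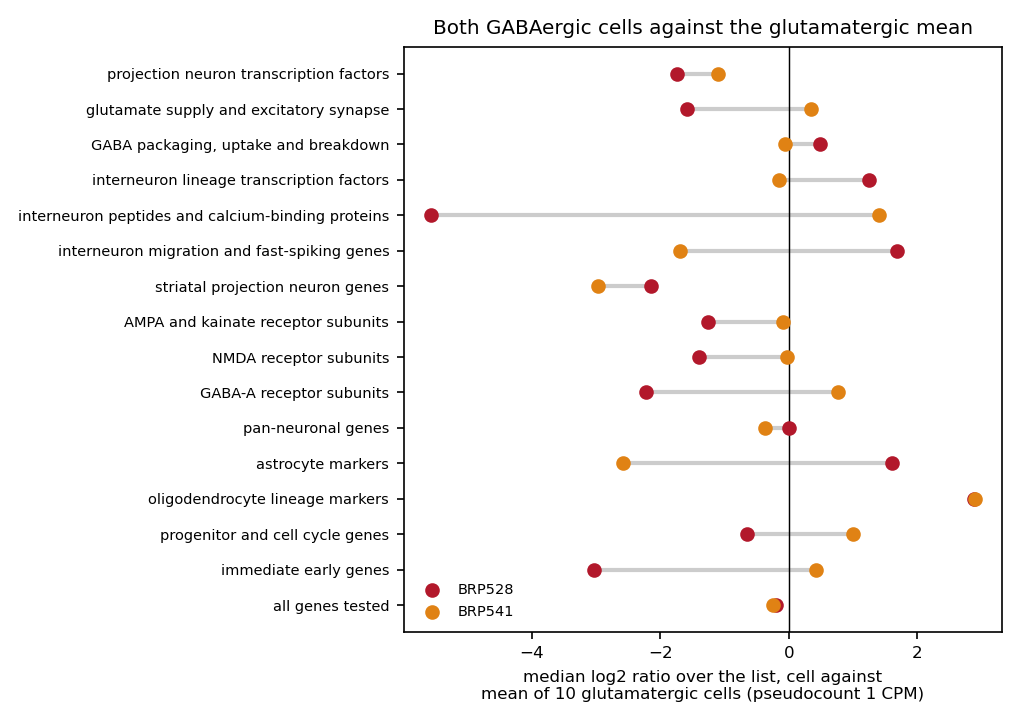
Median log2 ratio of each gene list in BRP528 (red) and in BRP541 (orange) against the mean of the 10 glutamatergic cells, for lists with at least 4 genes tested in both. The cells lie on opposite sides of 0 for many lists. Among them are the peptides (-5.57 and 1.41), the astrocyte markers (1.62 and -2.59) and the migration genes (1.68 and -1.69). The GABA-A receptor subunits (-2.23 and 0.77) and the immediate early genes (-3.03 and 0.43) are others. The cells lie together for the oligodendrocyte lineage markers (2.89 and 2.90).

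Markers of the oligodendrocyte lineage had their highest sums in both GABAergic cells and in 1 glutamatergic cell. The 12 oligodendrocyte lineage markers summed to 799 CPM in BRP528, 1045 in BRP541 and 1323 in BRP529, and to between 1.03 and 76.6 CPM in the other 9. Olig1, a factor of the lineage, was at 84.8, 503 and 831 CPM in these 3 cells and at most 31.8 in the other 9, while Pdgfra, the receptor that marks precursors, was at 0, 200.1 and 257 CPM and at most 1.32. BRP528 instead had myelin genes, with Mbp at 455 CPM and Cnp at 49.6, compared with glutamatergic maxima of 36.6 and 7.61. Of the defining markers of mature oligodendrocytes, Mog and Opalin were at 0 counts in all 12 cells and Mag was at most 0.0498 CPM. Between the sides, 5 of 7 markers that passed were 4-fold or more higher in the GABAergic cells and 0 lower. Only 2 of the 7 were above every glutamatergic cell in both, and BRP529, a glutamatergic cell, held the highest sum. The median log2 ratio was 2.33. It ran from 2.19 to 4.69 with each cell left out, the highest without BRP529.

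The 16 astrocyte markers summed to 2735 CPM in BRP528 and 1020 in BRP541, both inside the glutamatergic range of 758 to 2806. Slc1a2 and Sparcl1 were present in all 12 cells, with at least 3219 and 1875 counts. Some members stood out in BRP528: Gfap at 115 CPM, Aldoc at 589, S100b at 396 and Apoe at 311, against glutamatergic maxima of 7.43, 271, 59.0 and 126. Other astrocyte markers did not. Slc1a3, Gja1 and Aldh1l1 had 2589, 594 and 39 counts in BRP528, against 6312, 2156 and 399 in BRP529. Aqp4, the water channel of astrocytes, was at 142 CPM in BRP528 and 418 in BRP529. Single astrocyte markers were also found in other glutamatergic cells: BRP534 had 126 CPM of Apoe, 75.8 of Sox9, the highest of the 12 cells, and 28.9 of Aqp4, and BRP540 had 36.1 CPM of Fgfr3 and 32.5 of Slc1a3. In BRP541 Gfap had 0 counts, and Aldoc and Aqp4 were at 0 and 0.114 CPM. Of the markers that passed, 5 of 15 were above and 0 below every glutamatergic cell in BRP528 (median log2 ratio 1.62), whereas in BRP541 0 of 12 were above and 1 was below (median -2.59). In the 8 other BRP columns the same 16 genes summed to between 4182 and 13346 CPM. Microglial markers summed to 18.1 CPM in BRP528, 8.08 in BRP541 and at most 46.6 in the others, with Tmem119 at 0 counts in all 12, and vascular and fibroblast markers to 2.89, 0.171 and at most 44.3 CPM, with Cldn5 and Cdh5 at 0.

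Progenitor and cell cycle genes were summed to 1897 CPM in BRP528, 1121 in BRP541 and 9880 in BRP529, and to 47.6 to 321 CPM in the other 9 cells. In BRP528 most of the sum was Vim (1112 CPM) and Fabp7 (482 CPM). Several genes of division were higher in BRP541 than in any glutamatergic cell, with Top2a at 200.1 CPM, Ccnb1 at 57.7 and Mki67 at 48.9 against maxima of 96.1, 13.4 and 46.2, and Cdc20 was at 165 CPM against a maximum of 0.627. Cdk1, the kinase of mitotic entry, was not, at 33.3 CPM in BRP541 and 0 in BRP528 against 178 in BRP529, 64.4 in BRP534 and 43.0 in BRP535. BRP529, glutamatergic by the rule with the lowest Slc17a6 and Slc17a7 sum, held 7008 CPM of Fabp7, 1900 of Vim and 461 of Sox2. These 3 cells held the highest sums of both the oligodendrocyte and the progenitor list, beside their neuronal genes. By single genes, 0 of the 9 progenitor and cell cycle genes that passed were above and 0 below every glutamatergic cell in BRP528 (median log2 ratio -0.66). In BRP541, 4 of 10 were above and 0 below every glutamatergic cell (median 1.00). Whether RNA of a further cell is part of these libraries was not tested, and no doublet caller was run on cells picked singly.

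**Figure D4:**
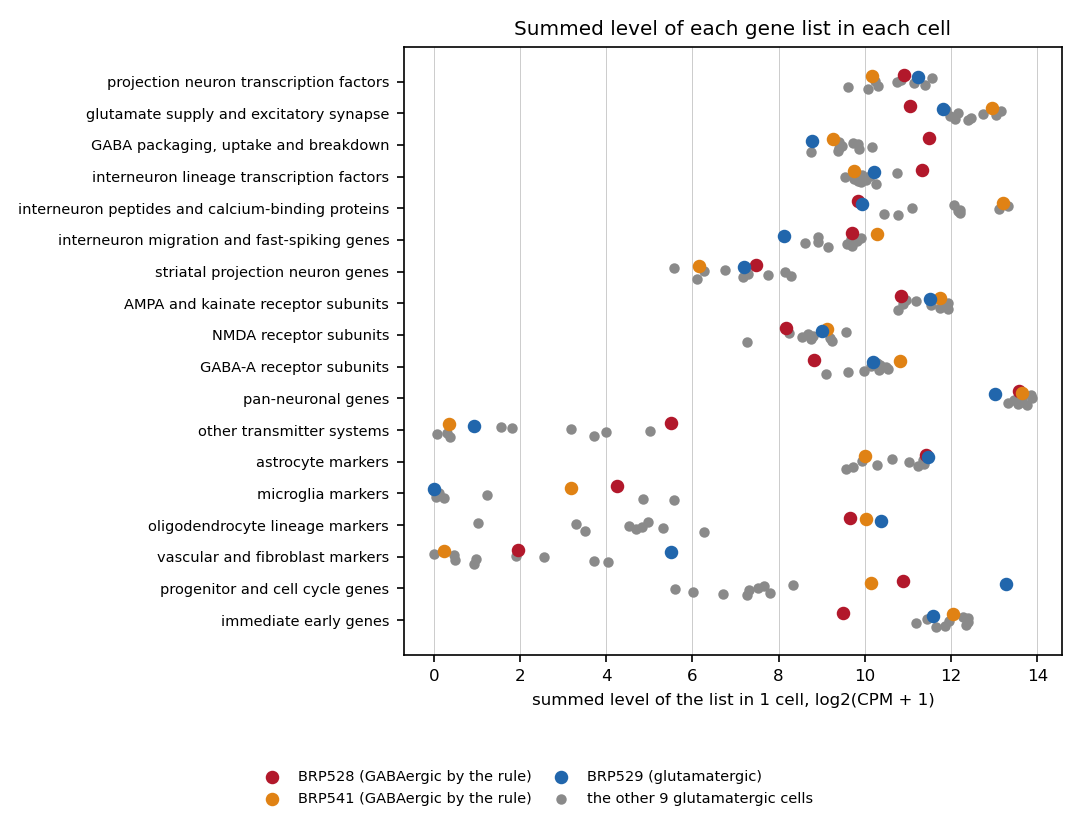
Summed level of each gene list in each cell as log2(CPM + 1), with BRP528 in red, BRP541 in orange, BRP529 in blue and the other 9 glutamatergic cells in grey. BRP528, BRP541 and BRP529 lie apart from the grey points in the oligodendrocyte lineage markers (799, 1045 and 1323 CPM) and the progenitor and cell cycle genes, and BRP528 alone exceeds all others in the GABA genes (2877 CPM).

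The genes with the widest gap between the sides were ranked over all genes that passed the minimum. Above every glutamatergic cell in both GABAergic cells were Spock3, a secreted proteoglycan (43.2 and 21.9 CPM against at most 1.08), Phactr4 (13.9 and 54.0 against 0.408), Lysmd4 (42.9 and 53.2 against 3.49), Gjc3, a glial connexin (11.6 and 23.7 against 0.313), Serpina3n, a protease inhibitor of reactive glia (297 and 139 against 21.3) and Cldn11, a tight junction protein of myelin (73.6 and 91.4 against 19.6). Others among the 12 widest were Fam181b, Hmbox1, Ankrd9, Maf, 1810032O08Rik and Plod1. Intronic counts in BRP528 and BRP541 did not follow for Spock3 (272 and 30 against up to 3119 in glutamatergic cells). They did not for Phactr4 (41 and 8 against up to 196), Lysmd4 (0 and 14 against up to 932) or Cldn11 (1 and 3 against up to 2738). Gjc3 had 11 and 0 against up to 1, and Serpina3n had 0 intronic counts in all 12 cells. Below every glutamatergic cell in both were Prkg2, a cGMP-dependent kinase (0.0996 and 0.626 CPM against 63.1, 106 and 152), Chst1, a sulfotransferase (0.0996 and 0.967 against at least 34.0), Asic2, an acid-sensing channel (0 and 3.01 against at least 34.1), Creg2 (0 counts in both against at least 8.02) and Prdm8 (0 and 0.0569 against at least 7.46). Robo1, Mast3, Slc41a2, Rbm24, Ncrna00086, Tada2b and Ddx18 completed the lower 12. Both cells were at most 3.01 CPM in these 5 described genes, whereas all 10 glutamatergic cells carried them.

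Beside Slc32a1 and Npy, the 12 genes that set BRP528 farthest above the glutamatergic cells included Ankrd34b (268 CPM against at most 0.153), AY512915 (236), Cygb, a globin (226), Cntn4, an adhesion molecule (199, with 0 exonic counts in the other 11 cells, all of which had 153 to 2443 intronic counts), Fgf1 (110) and Rpe65 (97.3). All were at most 0.306 CPM in the glutamatergic cells. Among the 12 farthest below were Lingo1 (0.797 CPM against 305, 516 and 1029), Arpp21, a cAMP-regulated phosphoprotein of excitatory neurons (2.29 against 451, 708 and 1302), Kcnv1, a modulatory potassium channel subunit (0.0996 against at least 141), Wfs1 (2.54 against at least 425) and C1ql3, a secreted synaptic protein (0.398 against at least 154). BRP541 had 472, 195, 63.3, 1402 and 729 CPM of these 5, inside the glutamatergic range for Lingo1, Wfs1 and C1ql3 and below it for Arpp21 and Kcnv1.

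Among the 12 genes that set BRP541 farthest above the glutamatergic cells were Krt6a, a keratin (232 CPM against at most 0.343), Cdc20, an activator of mitotic exit, Cdkn2c, a cyclin-dependent kinase inhibitor (66.5 against 0.306) and Htr1a, a serotonin receptor (63.6 against 0.374). BRP528 had 0 counts of Krt6a, Cdc20 and Htr1a. Among the 12 genes farthest below were Hdgfrp3 (0.341 CPM against at least 147), Oxr1 (0.284 against at least 23.5) and Rasl11b (0 against at least 18.4). For Oxr1, BRP528 lay on the other side, at 621 CPM against a glutamatergic maximum of 270.

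Within the glutamatergic side, the 5 cells with Gad2 and the other 5 alike had little of Slc32a1 and Lhx6, which BRP528 carried. Slc32a1 had 0 counts in all 5 of BRP535, BRP536, BRP537, BRP539 and BRP543. Lhx6 was at most 0.153 CPM in these 5 cells. The other 5 had at most 1 count of Slc32a1 each, and Lhx6 had 74 counts in BRP529 and 0 in the rest of them. Peptide genes varied widely on this side. Penk ranged from 0.627 CPM in BRP529 to 6559 in BRP537, and Cck from 700.2 in BRP543 to 5024 in BRP535. BRP535, BRP537 and BRP543 are among the 5 cells with Gad2, and BRP529 is not. Whether peptide levels went with Gad2 was not tested. The summed level of genes of striatal projection neurons, a further class of GABAergic cells, was inside the glutamatergic range in both GABAergic cells, at 175 CPM in BRP528 and 70.6 in BRP541 against 46.3 to 311, and Drd2 was at most 0.0974 CPM in any cell. Of the genes of this list that passed, 1 of 6 was above and 2 below every glutamatergic cell in BRP528 (median log2 ratio -2.15), and 0 of 5 above and 1 below in BRP541 (median -2.97).

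The same rule applied to the columns outside the 12 gave 1 glutamatergic and 7 neither among the 8 other BRP columns, and 7 GABAergic and 1 neither among the 8 F columns. Gad1 there was at most 9.61 CPM in the other BRP columns. In the F columns it was between 0.739 and 8713 CPM with a median of 2754, so the 1136 CPM of BRP528 lay inside their range, whereas Slc17a6 was at most 0.228 CPM in the F columns, below the 213 CPM of BRP541.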

How the data were processed

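RNA of 28 single cells was measured. As deposited by the authors, the values are raw counts of each gene in each cell, with a table for exons (23453 genes) and another for introns (20422 genes). The submitters' processing notes name bcl2fastq 2.17, STAR 2.4.0 and mm10, without their roles. The counting tool, annotation and strand setting are not given in the sources used here. Of the 28 columns, 0 matched a label, so no group of samples was compared, and no p-value is given.

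Exonic counts were scaled to CPM by the exonic total. Ratios are log2 of mean CPM of the sides with a pseudocount of 1 CPM, over genes whose side means averaged at least 5 CPM, the 4 rule genes left out. A floor of 3 counts corresponds to 0.112 to 0.172 CPM in the 12 cells. The 12 cells and the 18 gene lists (255 genes, 4 of them absent from the table) were chosen with earlier results of these data known. Named genes were list members past 4-fold, up to 6 per list and direction, defining markers of other cell types, and the 12 genes per direction with the largest gap between sides. Further list members that lay outside the glutamatergic range, and genes ranked by the gap of 1 GABAergic cell, were named after their values were seen. Alternatives were edgeR 4.0.16 TMM factors, DESeq2 1.42.0 size factors, added intronic counts, thinning to 17483754 counts, other minimums and pseudocounts, the median over cells and each cell left out. The scripts (Python 3.11.15, R 4.3.3) were tested on simulated data. Sequences come from RefSeq (GRCm38.p6) and positions from GENCODE M21. Some genes of the lists are not reported here.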

Additional observations from a re-analysis of the deposited data

Results flagged for a closer look

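Among 22 summaries of the 10 glutamatergic cells, 1 held a cell far from the rest, as chance would give in about 1 of 20. BRP529 had 9880 CPM of progenitor and cell cycle genes, and on the log2 scale its gap to the next cell was 0.644 of the range over the cells. The next highest glutamatergic cell had 321 CPM.

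Outside the 12 cells, BRP566 had 133 CPM of Slc17a6 and Slc17a7 together, all of it Slc17a6 (2095 counts), with 1.46 CPM of Gad1. The other 7 of these 8 BRP columns had at most 0.154 CPM of the pair. What this column is cannot be told from its code.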

How the results depend on the processing

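All 12 cells kept their side with a minimum of 10 or 50 CPM, with intronic counts added, and with the 10 most abundant genes left out of the total. No paired analysis was possible because the columns carry no replicate number and no test was made. Counts of genes past 4-fold moved by more than 1.5 times under some settings. With a pseudocount of 5 CPM, 391 genes were higher and 491 lower on the GABAergic side. With medians over cells, 1698 were higher and 561 lower, and the median log2 ratio of all genes moved from -0.05 to 0.31. The median of 2 GABAergic cells is their mean, so this setting changed the glutamatergic values alone. With no minimum level, 1703 were lower. With a minimum mean of 50 CPM, 130 were higher and 91 lower, and the sides did not overlap in 88 and 67 genes. Fewer genes were tested at that minimum. TMM factors, DESeq2 size factors and thinning moved no count beyond 1.5 times.

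Leaving out each cell in turn gave 662 to 931 genes 4-fold higher and 982 to 2021 lower, and 199 to 1444 and 179 to 1002 genes in which the sides did not overlap. The high ends come from leaving out BRP528 or BRP541, when 1 cell stands for the side.

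Medians over cells also raised the median log2 ratio of several lists: to 3.79 for the interneuron lineage factors, 4.07 for the peptides, 2.20 for the migration genes, 4.52 for the other transmitter systems, 3.93 for the astrocyte markers, 5.25 for the oligodendrocyte markers and 4.98 for the progenitor genes. These rises come from the glutamatergic side alone, where a gene high in few cells counts less in a median than in a mean. The peptides stood at 1.58 with a pseudocount of 5 CPM, and the 1 tested gene of other transmitter systems, Ddc, at 1.72 with intronic counts added.

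With each cell left out, the median log2 ratio ran from -1.74 to -0.83 for the projection factors, from -1.59 to 0.34 for the excitatory synapse, from -0.15 to 3.43 for the lineage factors, from -5.57 to 2.91 for the peptides, from -1.69 to 1.68 for the migration genes, from -2.97 to -0.39 for the striatal genes, from -1.25 to -0.09 for the AMPA and kainate subunits, from -1.40 to -0.03 for the NMDA subunits, from -2.23 to 0.77 for the GABA-A subunits, from 3.14 to 4.51 for other transmitter systems (not run without BRP528, where no gene of the list passed the minimum), from -2.59 to 2.72 for the astrocyte markers, from 2.19 to 4.69 for the oligodendrocyte markers, from -0.66 to 3.65 for the progenitor genes and from -3.03 to 0.43 for the immediate early genes. The direction changed with BRP528 or BRP541 left out, except for the lists whose range keeps 1 sign. The high ends for the lineage, astrocyte, oligodendrocyte and progenitor lists come without BRP529, and that of the peptides without BRP536. The causes were not tested. Sequencing depth limits little here, since 1 count is a small part of 1 CPM in each cell. Loss of transcripts before sequencing was not measured, so 0 counts need not mean absence. BRP528, for example, had 0 exonic and 211 intronic counts of Slc17a6. The 2 cells on a side limit every comparison.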
